A study of Rattus norvegicus with 14 samples.

Results

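The hormones and markers of enteroendocrine cells were described in rat colonocytes on 2 diets, of normal protein content (NPD) and of high protein content (HPD). The set held 10 gene names: Gcg, Pyy, Insl5, Cck, Sst, Nts, Tph1, Chga, Chgb and Neurod1. Every non-control probe of the array that carried such a name was taken. No probe was named Insl5, so 9 genes with 11 probes were measured, among 26276 gene names with 30367 probes on the array. Pyy and Tph1 each had 2 probes, and each probe was printed as 2 spots.

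Enteroendocrine cells are scattered, hormone-secreting cells of the gut epithelium that sense the luminal content. In the colon the main kinds are L cells, which release peptides cut from proglucagon together with peptide YY and insulin-like peptide 5, and enterochromaffin cells, which make serotonin. Hormones and granins are stored in dense granules, and amino acids, peptides and bacterial metabolites in the lumen are known stimuli of their release.

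All animals were male Wistar rats kept for 15 days on isocaloric diets in which protein gave 14% (NPD) or 55% (HPD) of the energy. Epithelial cells detached from the perfused colon with EDTA gave the RNA, which was labelled with Cy3 and hybridised to Agilent arrays, each rat on an array of its own, with 7 rats on NPD and 7 on HPD. The last segment of the colon was used for other measurements and gave no RNA. Such preparations are mixtures of cell types and not sorted enteroendocrine cells. Fewer cells of a type and less RNA per cell therefore cannot be told apart in any value below. Slide 1 carried 4 NPD and 3 HPD arrays, and slide 2 the other 3 and 4. The study had left out 1 further array of each diet as an outlier after a principal component analysis. The spread between rats given below is that of the arrays it kept.

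The probes shown here are the ones whose letters lie in the coding part of a hormone gene, since they tell which precursor mRNA was measured. Each is given 5′ to 3′ as printed on the array, with its place in the rat genome build rn4 that the scanner files name, on the minus strand. The Gcg probe lies at chr3:44436079-44436138 and runs into the codons that open the glucagon peptide. The Pyy probe, the dimmer of its 2, lies at chr10:91174648-91174707 in the last part of the precursor. The Nts probe lies at chr7:40474898-40474957, over the codons of neuromedin N and of the start of neurotensin.
Gcg: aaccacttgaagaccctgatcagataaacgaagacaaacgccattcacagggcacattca
Pyy: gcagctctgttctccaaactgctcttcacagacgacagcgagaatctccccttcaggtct
Nts: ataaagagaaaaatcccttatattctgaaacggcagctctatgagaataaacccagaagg
The Gcg probe therefore reads the mRNA of the whole proglucagon precursor and cannot tell which peptides the cells cut from it.

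The scanner software marked 19640 to 20976 probes of an NPD array and 18839 to 20376 of an HPD array as well above background. Before centring, the median spot signal of an array was 113 to 180 on NPD and 89.4 to 130 on HPD. HPD replicate 7 had both the lowest median and the fewest probes well above background. The diet differences below are after centring and depend on it. Of the 9 genes, 8 were well above background on all 14 arrays. Nts was so on 6 NPD and 6 HPD arrays, and no probe of the set was saturated on any array. All 7 epithelial markers (Epcam, Cdh1, Vil1, Krt8, Krt18, Krt20 and Cldn3) were well above background on all 14 arrays, and their summed log2 level over the array median was 12.2 to 12.6 on NPD and 12.2 to 12.8 on HPD.

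None of the enteroendocrine genes differed between the diets beyond the spread between rats. At an adjusted p under 0.1 (limma, Benjamini-Hochberg over every probe), 0 of the 9 genes were called, and 0 had an unadjusted p under 0.05. Over all probes 0.056% were called and 11.4% had an unadjusted p under 0.05 (5.86% higher and 5.55% lower on HPD). The diets overlapped in all 11 probes of the set, and 0.273% of all probes had no overlap. By the signs alone 5 of the 9 genes were lower on HPD (Chga, Chgb, Tph1, Gcg and Nts) and 4 higher (Pyy, Cck, Sst and Neurod1), while 35.8% of all probes were lower. The median log2 difference of the 9 genes was -0.08 and that of all probes 0.11. The latter depended on the scaling and was 0.00067 after cyclic loess normalization between arrays. The 9 signs were the same after cyclic loess, quantile normalization and centring on the mean or the 75th percentile, but Cck turned to -0.0024 with the mean pixel signal and -0.0073 with the median pixel signal, and Cck and Pyy turned in the deposited table (-0.049 and -0.034). Values are given below as log2 signal over the array median, and differences as HPD minus NPD on the same log2 scale.

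**Figure D1:**
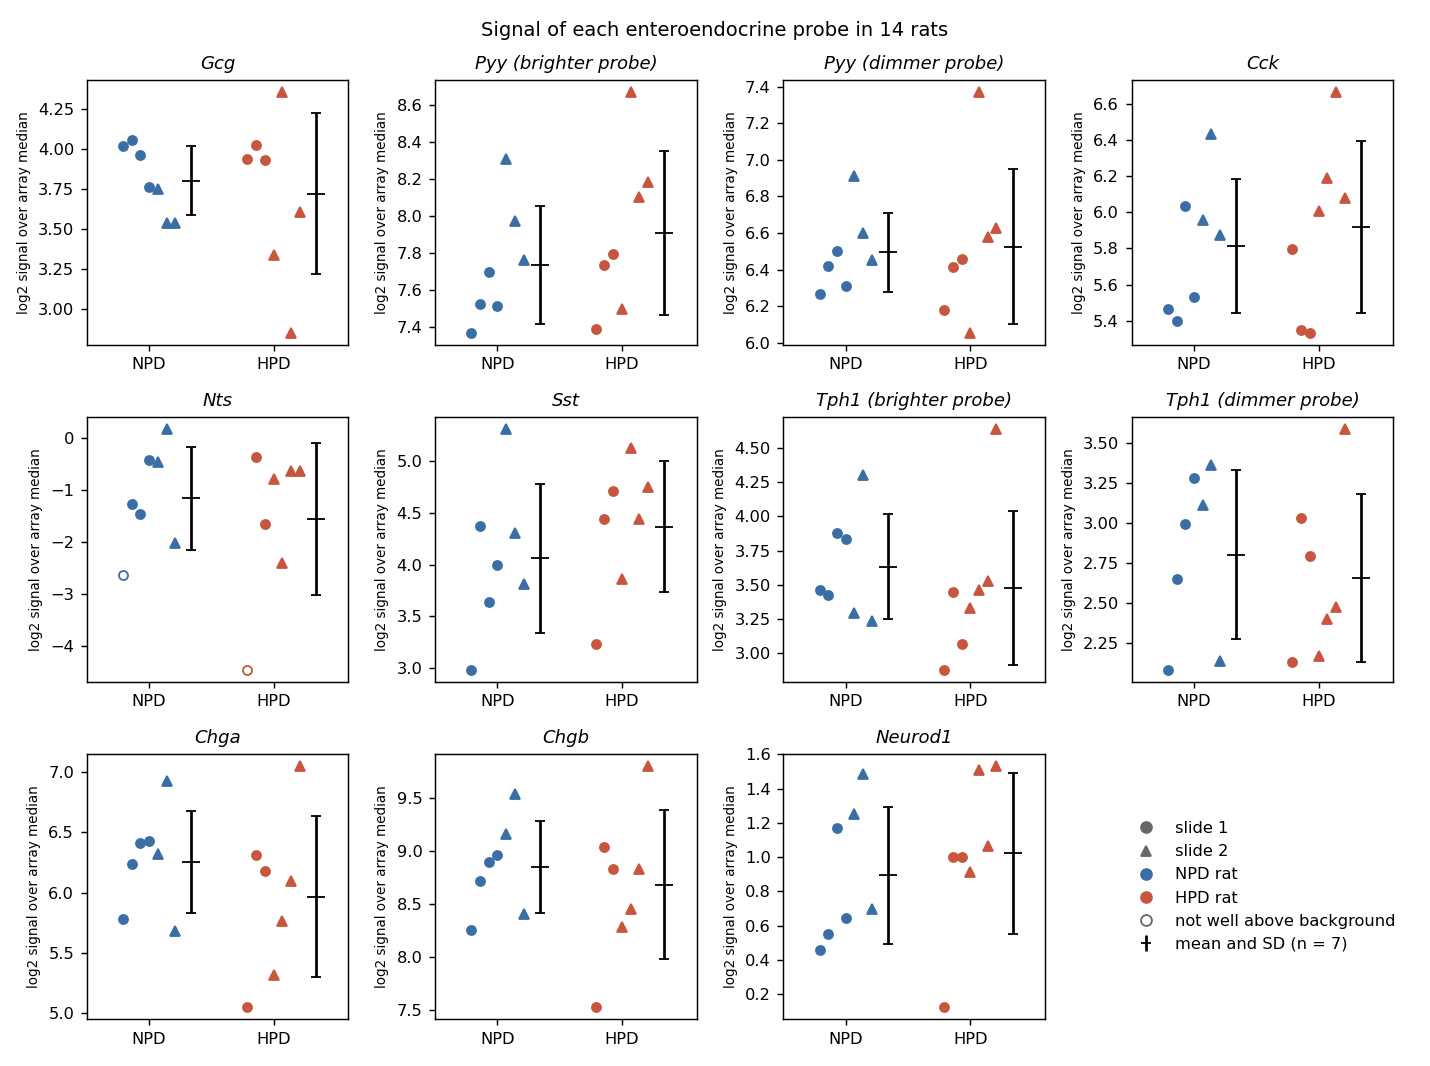
Log2 signal over the array median (y axis, a separate range in each panel) of the 11 probes on the 7 NPD and 7 HPD arrays. Each point is a rat, circles are slide 1 and triangles slide 2, open points were not well above background, and bars give the mean and SD; the diets overlap in every panel, and HPD replicate 1 is the lowest rat for Chga, Chgb, Nts, Neurod1 and the brighter Tph1 probe.

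Gcg encodes proglucagon, the precursor of GLP-1, GLP-2 and glucagon. Its signal ran from 3.54 through a median of 3.76 to 4.06 on NPD and from 2.85 through 3.93 to 4.36 on HPD. The HPD rats enclosed the whole NPD range, with HPD replicate 6 the lowest and HPD replicate 5 the highest of all rats. The mean was 3.80 ± 0.22 (SD, n = 7) on NPD and 3.72 ± 0.50 (SD, n = 7) on HPD. The log2 difference was -0.08 (SE 0.20, 95% confidence interval -0.51 to 0.35, limma adjusted p = 0.843), and the exact two-sided permutation test gave p = 0.70. Without HPD replicate 6 its sign turned, to 0.06.

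Pyy encodes peptide YY, which slows gut transit and lowers food intake. Its brighter probe ran from 7.37 through 7.70 to 8.31 on NPD and from 7.39 through 7.79 to 8.67 on HPD. The lowest rats of both diets had close values, and HPD replicate 5 was again the highest. For this probe the log2 difference was 0.17 (SE 0.20, 95% confidence interval -0.25 to 0.60, limma adjusted p = 0.669; exact permutation p = 0.413). The second probe gave 0.03 (95% confidence interval -0.35 to 0.41). Both probes ranked the rats alike, with Pearson's r 0.93 and Spearman's rho 0.94 over 14 arrays (permutation p = 1e-05 for each, the smallest that 100000 resamples can give), and r was 0.85 on slide 1 and 0.97 on slide 2. In the deposited table, which gives values by gene name, the difference of Pyy was -0.03.

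Cck encodes cholecystokinin, a hormone of I cells that contracts the gall bladder. It ran from 5.40 through 5.87 to 6.44 on NPD and from 5.33 through 6.01 to 6.67 on HPD. HPD exceeded NPD by 0.11 on average (SE 0.22, 95% confidence interval -0.36 to 0.57, limma adjusted p = 0.815; exact permutation p = 0.640), and it was 0.02 with slide as a block. The spread of Cck followed the slide more than the diet: the 7 rats of slide 2 averaged 0.61 above those of slide 1 with diet in the fit (limma adjusted p = 0.009).

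Sst encodes somatostatin, which D cells release to restrain neighbouring endocrine cells. The signal ran from 2.98 through 4.0 to 5.31 on NPD and from 3.23 through 4.45 to 5.13 on HPD, a 5.03-fold range over the 14 rats. Both the lowest and the highest rat were on NPD, replicates 1 and 5. The log2 difference of 0.31 was the highest of the set, with an interval from -0.41 to 1.02 (SE 0.34, limma adjusted p = 0.651; exact permutation p = 0.405).

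Nts encodes the precursor of neurotensin and neuromedin N. It was the only member not well above background on every array, and it varied most between rats. Its signal ran from -2.63 through -1.27 to 0.18 on NPD and from -4.45 through -0.78 to -0.35 on HPD. The lowest rat of each diet was its replicate 1, and on these arrays the spots were not well above background. HPD minus NPD came to -0.40 (SE 0.60, 95% confidence interval -1.68 to 0.89, limma adjusted p = 0.747; exact permutation p = 0.589). It was 0.09 without HPD replicate 1, so its sign rested on that rat.

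Chga encodes chromogranin A, the granin most used to stain endocrine granules. It ran from 5.68 through 6.32 to 6.93 on NPD and from 5.05 through 6.10 to 7.05 on HPD, a 4.0-fold range over all rats. HPD replicate 1 was the lowest and HPD replicate 7 the highest rat, so that the HPD group again enclosed the NPD group. The mean was 6.26 ± 0.42 (SD, n = 7) on NPD and 5.97 ± 0.67 (SD, n = 7) on HPD, and 5 of 7 HPD rats lay below the NPD mean. The log2 difference was -0.29 (SE 0.28, 95% confidence interval -0.88 to 0.30, limma adjusted p = 0.611; exact permutation p = 0.344). It was -0.37 within slide 1 and -0.25 within slide 2, and it stayed below 0 in all 31 alternative fits, from -0.47 to -0.14 (the latter without HPD replicate 1), with no call in any of them.

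Chgb encodes chromogranin B, a second granin of the same granules. It ran from 8.26 through 8.90 to 9.54 on NPD and from 7.53 through 8.83 to 9.80 on HPD. The same HPD rats were at its extremes, replicate 1 lowest and replicate 7 highest. Between diets the log2 difference was -0.17 (SE 0.29, 95% confidence interval -0.79 to 0.45, limma adjusted p = 0.776; exact permutation p = 0.612), and it was 0.02 without HPD replicate 1.

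Tph1 encodes tryptophan hydroxylase 1, which carries out the rate-limiting step of serotonin synthesis in enterochromaffin cells. Its brighter probe ran from 3.23 through 3.46 to 4.30 on NPD and from 2.88 through 3.45 to 4.64 on HPD. HPD replicate 1 was the lowest of all rats on this probe, and HPD replicate 7 stood well above the other HPD rats, of which the next was at 3.53. The log2 difference was -0.15 (SE 0.25, 95% confidence interval -0.68 to 0.37, limma adjusted p = 0.759; exact permutation p = 0.574), and the second probe gave -0.15 too. With HPD replicate 7 left out the difference of the brighter probe was -0.35, the lowest among the fits that leave out a rat, and it was not called.

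Neurod1 encodes a transcription factor that drives the differentiation of enteroendocrine precursors. It ran from 0.46 through 0.70 to 1.48 on NPD and from 0.13 through 1.00 to 1.53 on HPD. HPD replicate 1 was below every other rat, whereas 6 of the 7 HPD rats lay above the NPD mean. On average HPD exceeded NPD by 0.13 (SE 0.22, 95% confidence interval -0.35 to 0.60, limma adjusted p = 0.778; exact permutation p = 0.586). With slide as a block it was 0.06.

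**Figure D2:**
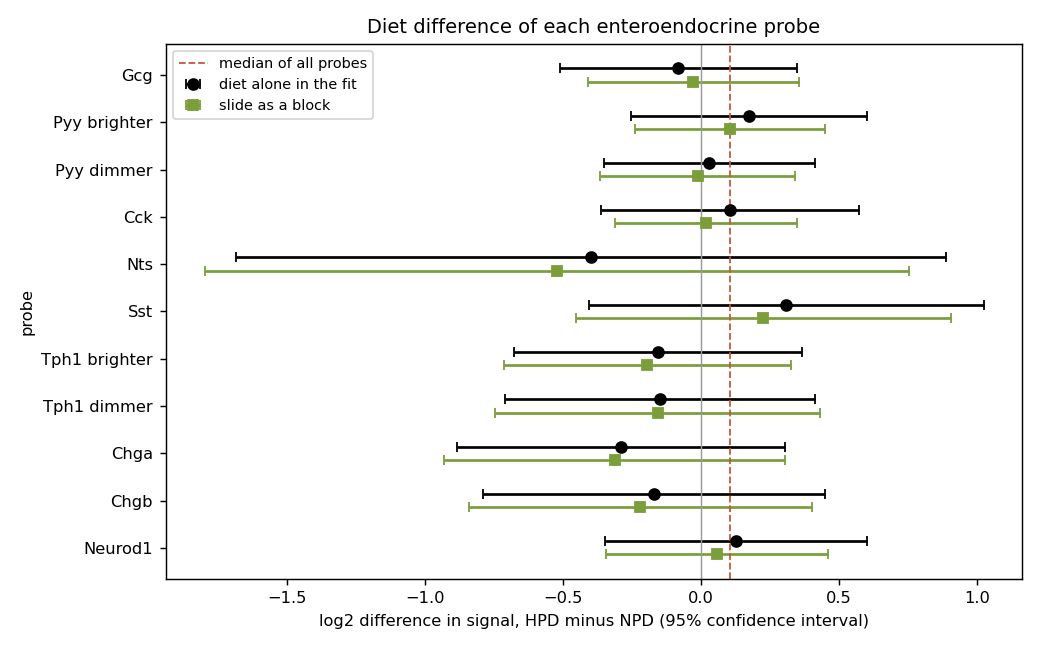
Log2 difference in signal between HPD and NPD (x axis) with its 95% confidence interval for each of the 11 probes (y axis), from the fit with diet alone (black circles) and with slide as a block (green squares); the dashed line is the median of all probes at 0.11. Every interval crosses 0, and that of Nts is the widest, from -1.68 to 0.89.

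The intervals bound what this design could have missed. For Pyy, Gcg, Cck and Neurod1 the bound farthest from 0 was 0.60 on the log2 scale (Pyy and Neurod1), whereas for Nts and Sst a change of over 1 unit in at least 1 direction lay inside the interval. The exact permutation test that regroups the rats only within their slide gave p between 0.331 for Chga and 0.943 for the dimmer Pyy probe. In the fit with diet, 3 of the 9 genes differed between slides at an adjusted p under 0.1 (Cck, Pyy and Neurod1, all higher on slide 2), beside 40.1% of all probes.

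In the main fit the wider genes of hormone cells were not called either, and few probes of the whole array were. That number depended on the processing: 17 in the main fit, 4408 after normexp background correction and 2767 in the deposited table blocked by slide. The study itself reported many more genes at the same threshold, most of them lower on HPD. The reason for this gap was not tested. Of 86 listed genes in 6 lists, 82 were on the array by symbol, and limma called 0 of them, beside 0.056% of all probes. At an unadjusted p under 0.05, 5 were higher and 2 lower on HPD, beside the 11.4% of all probes given above. The median log2 difference of the 82 genes was 0.11, equal to that of all probes to this precision, with 52 higher and 30 lower. Over all probes 35.8% were lower, which is the share to set beside the counts of each list below.

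**Figure D3:**
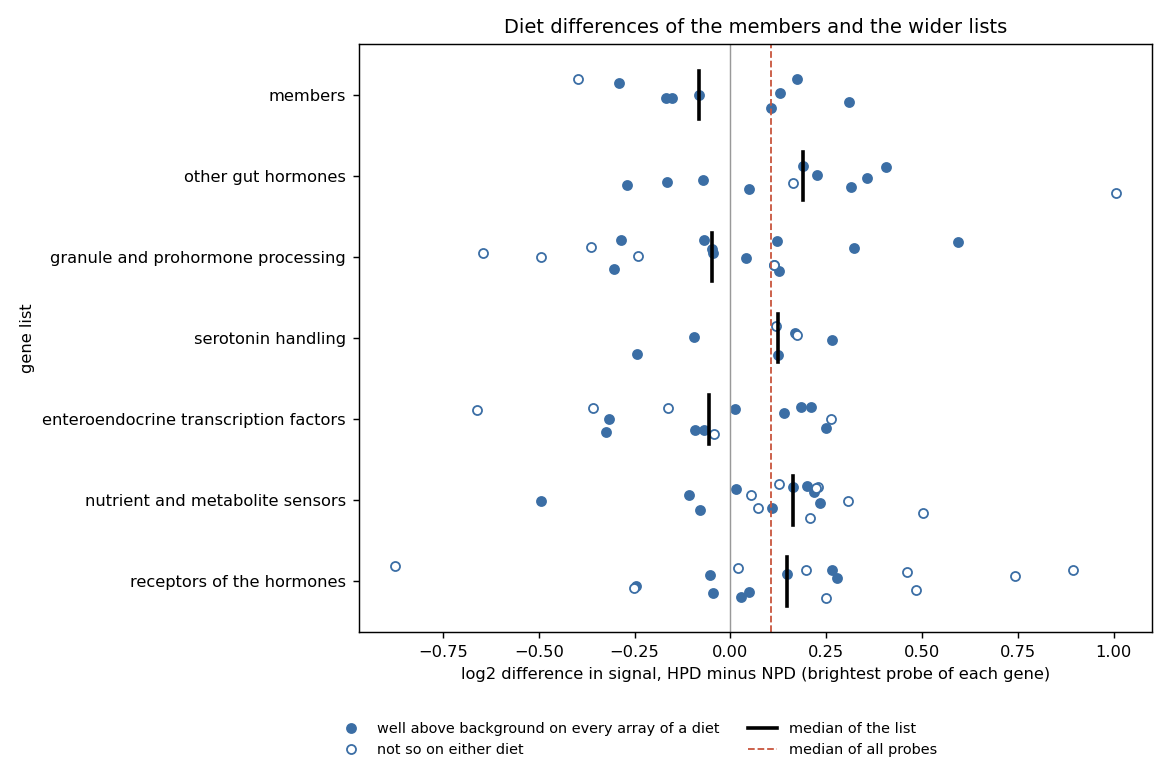
Log2 difference in signal between HPD and NPD (x axis) of the brightest probe of each gene in 7 lists (y axis, the members in the top row); points are genes, open where not well above background throughout either diet, black bars are list medians and the dashed line is the median of all probes. The list medians run from -0.08 for the members to 0.19 for the other gut hormones.

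Among the other gut hormones, guanylin (Guca2a), which stimulates chloride and bicarbonate secretion, was higher in 7 of 7 HPD rats than the NPD mean. Its level was 11.6 ± 0.22 (SD, n = 7) on NPD and 11.9 ± 0.25 (SD, n = 7) on HPD, a log2 difference of 0.31 with an unadjusted p under 0.05 but a limma adjusted p of 0.425. Ghrl, which encodes ghrelin, had the highest value of that list among detected genes (0.41) and Guca2b, which encodes uroguanylin, the lowest (-0.27), and neither was called. Ucn3 was not well above background on any array.

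Of the 16 genes of granules and prohormone processing 7 were higher and 9 lower, with a median of -0.05. Among the genes detected throughout 1 diet or both, Ptprn2, a granule membrane protein, had the highest value (0.59, limma adjusted p = 0.440) and Vgf, a granin, the lowest (-0.30, with 6 NPD and 7 HPD arrays well above background). Ptprn, the closest relative of Ptprn2, had -0.65 (limma adjusted p = 0.440) and was well above background on 6 NPD and 6 HPD arrays. Pcsk2, a prohormone convertase of islet and nerve cells, was not well above background on any array. In the serotonin list 5 of 7 genes were higher and 2 lower: Slc18a2, a vesicular monoamine transporter, stood highest (0.26) and Slc6a4, the serotonin reuptake transporter, lowest (-0.24). Tph2, the hydroxylase of neurons, was not well above background on any array.

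Of 14 transcription factors measured, Isl1 had a log2 difference of -0.66 (unadjusted p under 0.05, limma adjusted p = 0.417), but it was well above background on only 2 NPD and 1 HPD arrays. Among the detected factors Neurog3, which starts the endocrine lineage, stood highest (0.25). Of the 17 nutrient and metabolite sensors 14 were higher and 3 lower on HPD, with a median of 0.16. Beside this, 35.8% of all probes were lower and their median was 0.11. Only 8 of the 17 sensors were well above background on all 14 arrays. The gene for the butyrate and niacin receptor (Niacr1, now Hcar2) reached 0.23 (limma adjusted p = 0.434), and Ffar3, a receptor for short-chain fatty acids, was lowest at -0.49, with 7 NPD but only 4 HPD arrays well above background. Ffar1, Gpbar1, Gprc6a and Trpa1 were not well above background on any array.

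Receptors of the hormones were mostly dim, with 8 of 17 well above background on all 14 arrays. The GLP-1 receptor gene Glp1r was higher than the NPD mean in 7 of 7 HPD rats, with a log2 difference of 0.28 (limma adjusted p = 0.417), and Htr3a, a subunit of a serotonin-gated channel, had the lowest value of the detected receptors (-0.25). Npy1r (-0.88), Npy2r (0.89) and Cckar (0.74) also had an unadjusted p under 0.05. Npy1r was well above background on 6 NPD and 3 HPD arrays, Npy2r on 1 and 2, and Cckar on 0 and 1.

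Some of the enteroendocrine genes varied together from rat to rat. Among the 8 genes detected on all arrays, 28 pairs were correlated over the 14 arrays. Pearson's r ran from -0.60 to 0.96 with a median of 0.42, and 8 pairs had an adjusted permutation p under 0.05, all of them positive and none with Gcg or Cck. The lowest r of these 8 was 0.64, and 16.4% of all pairs among the 15289 gene names detected on all arrays had an r at least as high, beside 28.6% of the 28 pairs. By Spearman's rho 6 of these 8 passed. Within slide 1 and within slide 2 all 8 were positive, with r between 0.57 and 0.99.

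**Figure D4:**
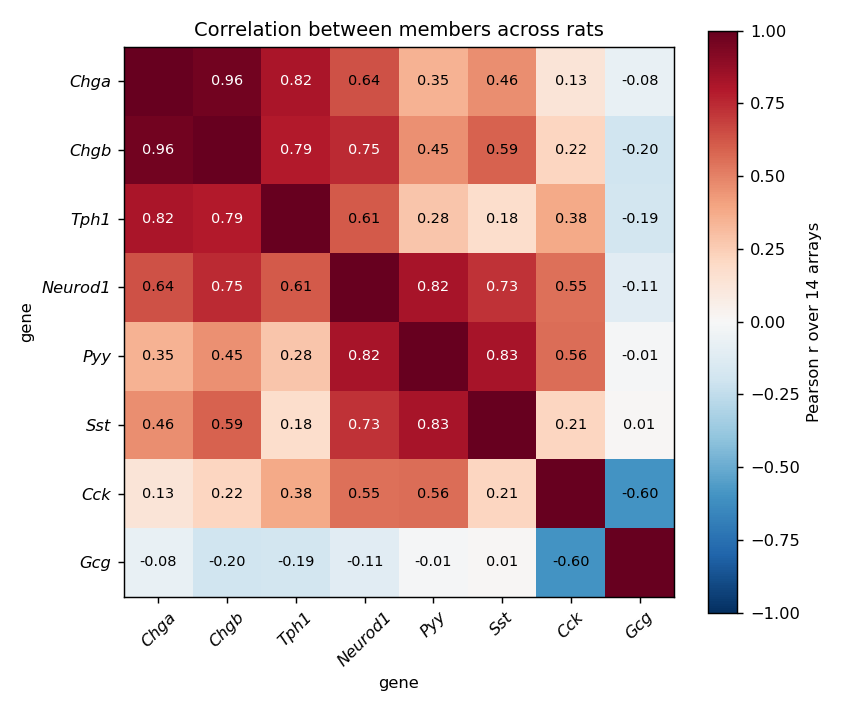
Pearson's r between the log2 signals of 8 members over 14 arrays, printed in each cell and coloured from blue (-1) to red (1), with the genes on both axes. The r among Chga, Chgb and Tph1 run from 0.79 to 0.96, those among Pyy, Sst and Neurod1 from 0.73 to 0.83, those of Neurod1 with Chga and Chgb are 0.64 and 0.75, and the r of Gcg with the other members run from -0.60 to 0.01.

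The granin genes moved almost as a single measure. Chga and Chgb had r = 0.96 and rho = 0.93 (permutation p = 1e-05 each, adjusted p = 0.00028), 0.98 on slide 1, 0.99 on slide 2, 0.95 within NPD and 0.98 within HPD. Without the 2 rats farthest from the median of Chga r was 0.96. Tph1 followed Chga with r = 0.82 and rho = 0.71 (adjusted permutation p = 0.00329 and 0.0373), 0.75 on slide 1 and 0.87 on slide 2. That relation was looser without the 2 rats farthest from the median of Tph1, at r = 0.64. Over 26 other settings the r of Tph1 with Chga ran from 0.67 to 0.93, and the call was lost in 1. Leaving out HPD replicates 1 and 7, which was chosen after seeing the data, kept Chga with Chgb at 0.94 (adjusted permutation p = 0.00112) but brought Tph1 with Chga to 0.67 (adjusted permutation p = 0.127).

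The r of Pyy passed the threshold with Sst and Neurod1 and not with the granins. With Sst it had r = 0.83 and rho = 0.85 (adjusted permutation p = 0.00329 and 0.00252), 0.78 on slide 1 and 0.90 on slide 2, and r was 0.74 without the 2 rats farthest from the median of Pyy. With Neurod1 it had r = 0.82 and rho = 0.86, 0.91 on slide 1 and 0.70 on slide 2. With Chga its r was 0.35 and rho 0.35 (adjusted permutation p = 0.364 each), 0.64 on slide 1, 0.31 on slide 2 and 0.67 without the 2 rats farthest from the median of Pyy. With Chgb r was 0.45 and rho 0.58 (adjusted permutation p = 0.194 and 0.0891), 0.73 on slide 1, 0.25 on slide 2 and 0.76 without these 2 rats. With diet in the fit the rats of slide 2 exceeded those of slide 1 by 0.48 for Pyy, 0.49 for Neurod1 and 0.57 for Sst (limma adjusted p = 0.033, 0.059 and 0.182). After diet and slide means were removed r was 0.78 for Pyy with Sst and 0.70 for Pyy with Neurod1, and 7 of the 8 pairs kept an adjusted permutation p under 0.05. The pair that lost it was Sst with Neurod1 (r = 0.63, adjusted permutation p = 0.058), while Neurod1 had r = 0.79 with both Chga and Chgb (adjusted permutation p = 0.0050 for each).

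Gcg, although made with Pyy in L cells, had r = -0.01 and rho = -0.15 with Pyy over all 14 arrays (adjusted permutation p = 0.964 and 0.746). On slide 1 r was 0.03 and on slide 2 it was 0.63, and after removing diet and slide means it was 0.58. With Chga it had r = -0.08, with -0.13 and -0.01 within the slides. Its lowest value was with Cck, r = -0.60 and rho = -0.47 (adjusted permutation p = 0.0627 and 0.168), which did not pass and was -0.17 on slide 1, -0.44 on slide 2 and -0.69 without the 2 rats farthest from the median of Gcg.

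**Figure D5:**
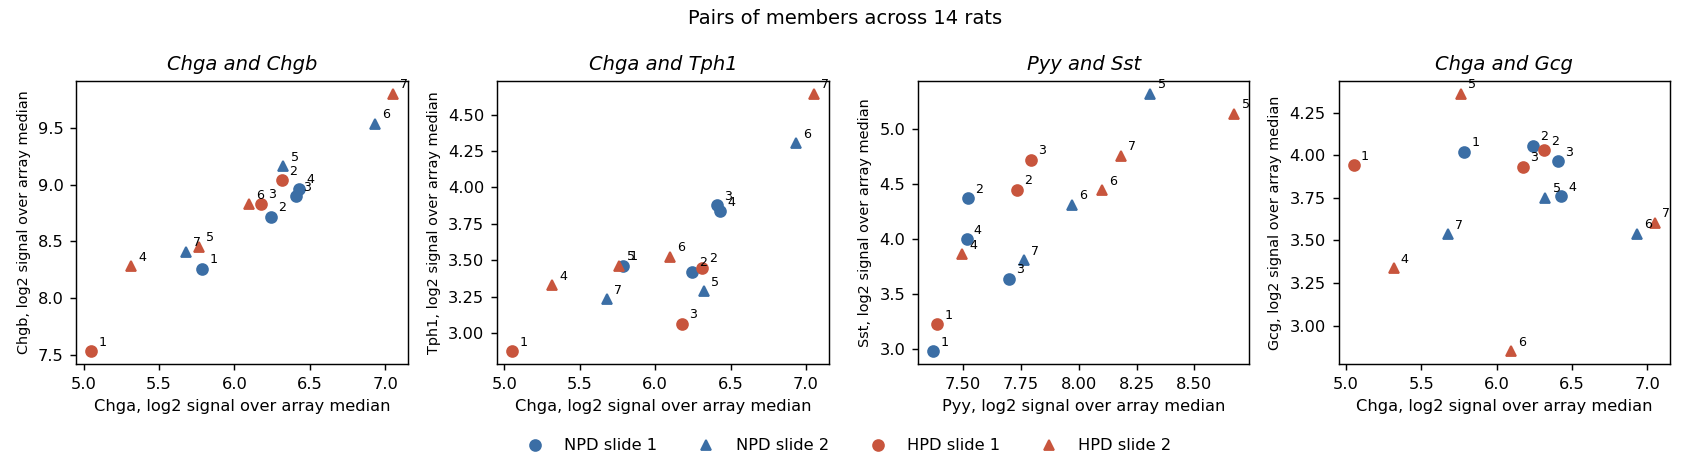
Log2 signals over the array median of 4 pairs of members, each point a rat numbered by its replicate (blue NPD, red HPD, circles slide 1, triangles slide 2). Chga and Chgb lie along a line from HPD replicate 1 to HPD replicate 7 (r = 0.96), Tph1 and Sst follow Chga and Pyy with more scatter (r = 0.82 and 0.83), and Gcg shows no trend with Chga (r = -0.08).

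Genes whose pattern was most like a member were sought among 15288 other gene names detected on all arrays, by Pearson's r after diet and slide means were removed. All genes read on an array share its signal depth and its slide, and this likeness is a description over 14 such arrays. For Chga the closest were Slc18a1, the vesicular monoamine transporter that loads serotonin into granules (r = 0.98), Atf6, a transcription factor of the endoplasmic reticulum (0.97), and a probe without a gene symbol (0.96). For Chgb they were Atf6 (0.98), Slc18a1 (0.97) and Resp18, a granule protein (0.96). Many genes followed this axis: 13.3% of the 15288 had r above 0.7 with Chga, and 4.23% without HPD replicates 1 and 7, where Slc18a1 kept an r of 0.95 with Chga.

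Between 0.419% (Gcg) and 1.03% (Pyy) of the genes had r above 0.7 with a hormone gene. Without HPD replicates 1 and 7 the share was 1.42% for Gcg and 2.17% for Pyy, so that the gap to Chga was smaller. For Gcg the closest were Ccnb2, a mitotic cyclin (0.93), Ncapd2, a condensin subunit (0.88), and Bub1b, a spindle checkpoint kinase (0.88). For Pyy they were Ccdc34 and Maged2 (0.90 each) and Tmem38b, an ion channel of the endoplasmic reticulum (0.87). For Sst they were Kat8, a histone acetyltransferase (0.88), the granin Scg2 (0.87) and Swap70 (0.86). For Cck they were RGD1563986 (0.88), Oas1f and Ipo13, an importin (0.86 each). For Tph1 the closest were Fa2h, a fatty acid hydroxylase, and Ube2d4 (0.90 each) with Ctnnd2 (0.88), and for Neurod1 they were Cadps, which primes dense granules for release, Haus1 (0.94 each) and Hsf2 (0.93).

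The lists differed in how far they followed each member. The 10 genes of granules and prohormone processing that were detected on all 14 arrays had a median r of 0.67 with Chga, beside 0.23 over all genes, and ran from -0.37 (Pam) to 0.96. Of these 5 were above 0.7: Resp18 (0.96), Pcsk1n (0.91), Scg5 (0.90), Cpe (0.79) and Cadps (0.73), named after their values were seen. With Pyy the median of these 10 genes was 0.54 beside 0.15 over all genes, and with Gcg it was 0.30 beside -0.06. The 5 detected serotonin genes had a median r of 0.58 with Chga and ran from -0.58 (Slc6a4) to 0.98. Of these Slc18a1 and Ddc, the decarboxylase that completes serotonin synthesis, had r of 0.98 and 0.85 with Chga. The 9 detected transcription factors had a median r of 0.28, near that of all genes, and ran from -0.56 (Neurog3) to 0.93 for Lmx1a, a factor of enterochromaffin cells and the only 1 above 0.7.

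Markers of other cells were set beside these patterns. With Gcg, the 4 detected stem and cycling markers had a median r of 0.49 and ran from -0.0052 (Smoc2) to 0.77 (Top2a). Their summed log2 level ran from 6.27 to 6.99 on NPD and from 5.92 to 7.17 on HPD. Top2a, a topoisomerase of dividing cells, itself had a log2 diet difference of -0.68 (limma adjusted p = 0.417). With Chga, the 8 goblet cell markers had a median r of -0.50 but ran from -0.81 (Muc2) to 0.67 (Spdef). Their summed level ran from 12.3 to 12.9 on NPD and from 12.0 to 13.4 on HPD. Of the 14 enteric neuron and glia markers 4 were detected on all arrays, with a summed level of 1.32 to 1.95 on NPD and 1.58 to 2.20 on HPD, and a median r of 0.44 with Chga. Of these Uchl1, which endocrine cells also express, and Sox10 had r of 0.88 and 0.72 with Chga, and Ret and Tubb3 had 0.16 and 0.09. The neuronal markers Prph, Vip and Nos1 and the glial marker S100b were not well above background on any array. The part of these cells in the patterns was not tested.

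The sequence before the start of Gcg and of Chgb is shown because these members did not move together (r = -0.20) and only they, of the 8 set members with a promoter entry in RefSeq (build GRCr8), held the letters CAGATG, a sequence that factors of the Neurod1 family can bind, within 250 bases before the start. Both strands were searched, and 14.0% of the 33469 promoters held it. Capitals mark CAGATG or its reverse complement and TATAAA on either strand, and each line gives the 150 bases before the start, 5′ to 3′ on the strand of the gene. They lie at chr3:67531534-67531683 (minus strand) for Gcg and chr3:140496562-140496711 (plus strand) for Chgb.
Gcg: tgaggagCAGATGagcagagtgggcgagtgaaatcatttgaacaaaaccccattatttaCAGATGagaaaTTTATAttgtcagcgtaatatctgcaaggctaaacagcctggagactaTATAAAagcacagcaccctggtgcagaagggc
Chgb: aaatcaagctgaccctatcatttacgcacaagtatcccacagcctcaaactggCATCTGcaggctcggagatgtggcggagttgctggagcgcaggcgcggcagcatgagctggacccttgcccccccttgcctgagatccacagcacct
Gcg held CAGATG 143 and 91 bases and TATAAA 32 bases before its start, and Chgb held the reverse complement of CAGATG 97 bases before its start. TATAAA was held by 12.9% of all promoters. The cyclic AMP response letters TGACGTNA were in none of the 8 members' windows and in 2.88% of all promoters. The windows were set by the start that RefSeq annotates, and no other start was searched. Letters absent from a window may therefore lie before another start of the same gene. A match is a description of the letters and says nothing about binding.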

How the data were processed

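Colonocyte RNA of 14 rats was measured on 1-colour Agilent arrays. The authors deposited scanner output (Agilent Feature Extraction 10.7.3.1) holding the intensity of each spot on a linear scale with and without background subtraction, and a table of normalized log2 values by gene name, used as an alternative. No column belonged to other samples (0). Control and outlier-marked spots were left out, background-subtracted intensity was log2-transformed, spots of a probe were averaged and each array was centred on its median. Diets were compared with limma 3.58.1 (R 4.3.3, diet as the only term, adjusted p under 0.1) without a filter on signal. A gene stood by its brightest probe. Single genes had exact two-sided permutation tests over the 1716 distinct splits (smallest p 0.000583) and over 1225 regroupings within slides, and correlations had 100000 permutations, adjusted over 28 pairs. The number of arrays limits the precision.

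The members, lists and tests were chosen with earlier results of these data known. Named were all members, genes of the wider lists with the highest or lowest detected value, with an unadjusted p under 0.05 or with no signal, and for each detected member the 3 genes most like it. Genes carry the names that the array design gave them. The wider-list results given are not complete: 1 gene that the naming rule would name is not reported here. The fit was tested on simulated data. Alternatives were other signal columns, centrings, normalizations, background corrections and filters, slide or replicate number as a block, the deposited table, a trended variance, a stricter threshold, the mean of all probes and leaving out each array.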

Additional observations from a re-analysis of the deposited data

Results flagged for a closer look

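Among the 22 groups of 7 values tested (11 probes in both diets), 1 held a value that stood apart by Dixon's criterion for 7 samples, and chance alone marks about 1 group in 20. Tph1 in HPD replicate 7 had a log2 signal of 4.64 on the brighter probe, the next HPD rat had 3.53, and the gap took 0.632 of the group's range against a critical share of 0.568. The same rat was the highest HPD rat on the dimmer Tph1 probe (3.59) and the highest of all 14 rats for Chga (7.05) and Chgb (9.80). Its array had the lowest median spot signal of the 14 (89.4) and the fewest probes well above background (18839). Before centring it stayed the highest HPD rat for these probes, but NPD rats read higher. Its Chga signal was 7101 beside 8523 in NPD replicate 3, and its Chgb signal 47696 beside 49043 in NPD replicate 6. On the brighter Tph1 probe it had 1336 beside 1473 in NPD replicate 3. The cause was not tested.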

How the results depend on the processing

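No member was called in any of 31 alternative fits, and no exact test of a member passed 0.05 under any setting. Spot-level centring and a block for slide in the deposited table or after cyclic loess were chosen after seeing the data, as were all settings of the correlations other than leaving out an array. Cck turned to -0.0024 with the mean pixel signal, -0.0073 with the median pixel signal, -0.041 after normexp (offset 50), -0.049 in the deposited table and -0.095 in that table blocked by slide. In these last fits Pyy was -0.034 and -0.074, and with the block Neurod1 was -0.0090. Leaving out each array gave -0.19 to 0.063 for Gcg, -0.019 to 0.21 for Cck, -0.64 to 0.085 for Nts and -0.36 to 0.022 for Chgb. Members lower on HPD numbered 8 of 9 in the table blocked by slide, and 3 to 5 when an array was left out (3 without HPD replicate 1). Over all probes 17 were called. The count was 4408 after normexp, 27 with slide as a block, 40 when this followed cyclic loess, 11 with the mean of all probes, 2767 in the table blocked by slide and 9 to 151 when an array was left out (151 without HPD replicate 1). None of the 17 was lower on HPD, beside 1672 of 4408 after normexp and 1717 of 2767 in the table blocked by slide. Of the 82 genes of the wider lists, normexp called 5 (Cckar, Cckbr, Glp1r, Gprc6a and Npy2r, all higher), beside 4408 of 30367 probes. The table blocked by slide called 3 of the 82, beside 2767 of its 26414 entries. Cckbr and Gprc6a were not well above background on any array. Cckar was so on 0 NPD and 1 HPD arrays, and Npy2r on 1 and 2. The 8 correlated pairs became 4 after quantile normalization, 5 after cyclic loess, 5 in the deposited table, 5 to 12 when an array was left out and 3 without HPD replicates 1 and 7. Chga with Chgb and Pyy with Sst passed in all 26 settings, whereas Chga with Neurod1 lost its call in 19. The causes were not tested.

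With the replicate number as a block 8 probes were called and 0 members. Deviations of rats with the same number correlated between -0.09 and 0.39 over 7 pairs, and 1 of 7 NPD rats correlated best with its own number, so the numbers were not taken as pairs. Signal near background limits Nts and the dim receptors.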

Other observations

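The NPD and HPD rats differed in spread for Gcg, with an SD of 0.22 on NPD and 0.50 on HPD (n = 7 each). This was not particular to Gcg. On the brightest probe the SD was also larger on HPD for Pyy, Cck, Nts, Tph1, Chga (0.42 and 0.67), Chgb (0.44 and 0.70) and Neurod1. It was smaller on HPD for Sst (0.72 and 0.64). No test of these differences in spread was run. The 2 Tph1 probes ranked the rats less alike than the 2 Pyy probes did, with r = 0.74 and rho = 0.59 (permutation p = 0.00161 and 0.0304), 0.63 on slide 1 and 0.83 on slide 2. The array design places the brighter Tph1 probe by a stretch of only 17 bases on chromosome 1, while each of the other 10 probes of the set is placed by 59 or 60 bases.

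The 8 detected hormone genes outside the set had a median r of 0.35 with Chga over 14 arrays after diet and slide means were removed. Secretin (Sct), ghrelin (Ghrl) and tachykinin 1 (Tac1) had r of 0.77, 0.81 and 0.91, whereas Guca2b, Adm and Nmb had -0.61, -0.54 and -0.32. With Pyy, Ghrl had r = 0.77, Sct 0.40 and Tac1 0.43. They were named after their values were seen.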
